A study of Saccharomyces cerevisiae with 4 samples.

Results

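The proteasome is the barrel-shaped protease that degrades proteins tagged with ubiquitin. Its core particle is a stack of rings of alpha and beta subunits, with the active sites inside the beta rings, and its regulatory particle consists of a base, whose ATPase ring unfolds the substrate, and a lid, which removes the ubiquitin. In budding yeast most of these genes share a promoter element called PACE, which is bound by the transcription factor Rpn4, and Rpn4 is itself a short-lived substrate of the proteasome.

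The transcripts of 33 genes for these subunits were described here, namely 10 of the base, 9 of the lid and 14 of the core, of which 7 code for the alpha ring and 7 for the beta ring. The genes were chosen by identity, with earlier results of these data known, out of the 6209 genes of the count table. RPN10, a ubiquitin receptor that sits where base and lid meet, was counted with the base. All 33 genes passed the filter on low counts, with between 1249 and 20684 reads per gene and library.

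RNA came from BY4741, a common haploid strain of budding yeast with the genotype MATa his3 leu2 met15 ura3, grown in the rich medium YPD. Thiolutin, an antibiotic with a disulfide that blocks transcription, was given at 3 µg/mL for 3 h to 2 of the analysed cultures, and 2 cultures were left untreated. The labels call the libraries of a group biological replicates, the submitters' design text gives 3 per condition, the methods of the study speak of 2 experiments, and 2 per condition were analysed here. The labels place the cells in exponential growth, whereas the methods mention overnight cultures.

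The libraries of poly(A)-selected RNA held 30205335 and 29962621 counts without thiolutin and 17038991 and 21440741 after treatment. The a-cell receptor gene STE2 had 632 and 553 normalized CPM (read counts scaled to a common library size) in untreated cells and 152 and 144 with thiolutin, and the alpha pheromone gene MF(ALPHA)1 stayed at or below 1.15 CPM in every library. Between the untreated libraries the proteasome genes differed by a median of 0.13 on the log2 scale, and 26 of 33 were higher in untreated replicate 2. Between the thiolutin libraries the median difference was 0.03.

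Thiolutin did not move the proteasome genes in one direction. With edgeR's quasi-likelihood test and a threshold of 0.05 on the Benjamini-Hochberg adjusted p, 12 of the 33 genes were higher with thiolutin, 8 were lower and 13 were not called, on a scale that leaves out genes with extreme values (TMM), whereas 3 were higher and 19 lower with total counts as the scale. Of all 5937 genes tested, 31.2% were called higher and 32.4% lower on the TMM scale. Calls in both directions were thus about as common across the transcriptome as a whole. With total counts as the scale, 965 of the 5937 genes were called higher and 3605 lower, so most genes were called lower there. On the TMM scale, RPN8 of the lid and PRE2 of the beta ring were the only members called at a log2 fold change of 1 or more. No member was called at -1 or less on that scale, and the shares of all genes were 15.7% and 10.3%. With total counts as the scale, 0 members were called at 1 or more and 7 at -1 or less, against 490 and 1862 of all 5937 genes. The groups did not overlap for 22 members that were higher with thiolutin and for 8 that were lower, compared with 40.8% and 43.9% of all genes.

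The changes of the members spread from -0.97 for PRE6 to 1.58 for RPN8 on the log2 scale, around a median of 0.27, and the median of all genes tested was -0.04. With total counts as the scale the median of all genes moved to -0.63 and that of the members to -0.32. Relative to the median of all genes, 24 of 33 members lay above it, and the difference of the medians was 0.31. A change of scale shifts all genes by nearly the same amount. Both values were therefore bound to be alike on the 3 scales tried, and that likeness is no separate support. The 24 members comprised 9 of 10 base genes, 8 of 9 lid genes, 3 of 7 alpha ring genes and 4 of 7 beta ring genes. The difference between the regulatory particle and the core was not tested.

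**Figure D1:**
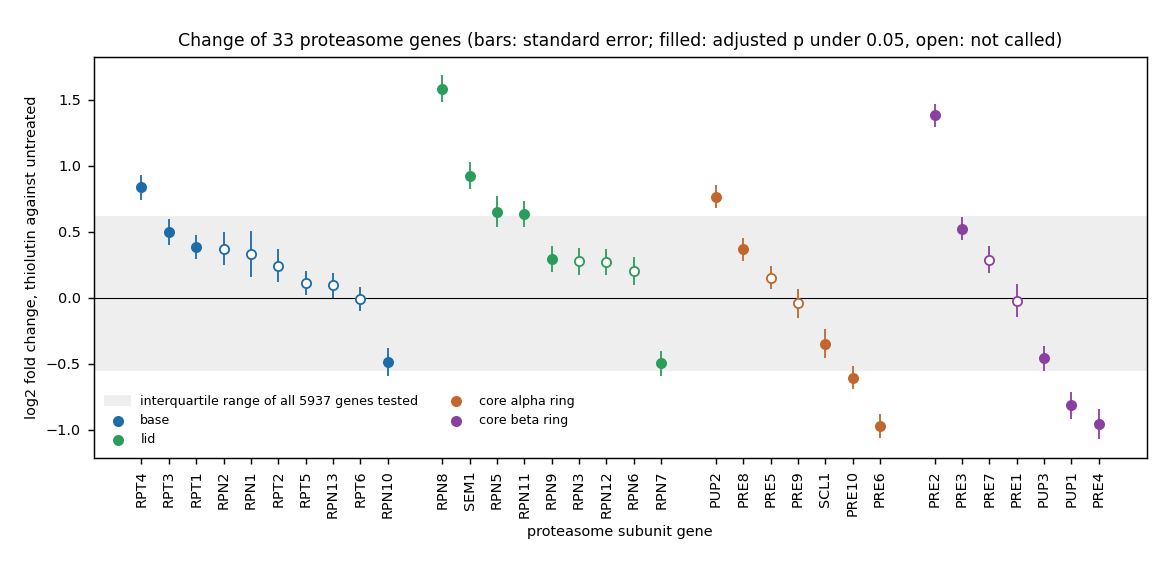
Log2 fold change of each of the 33 proteasome genes with thiolutin against untreated cells (y axis, TMM scale), by base, lid, alpha ring and beta ring, with bars for the standard error, filled points for an adjusted p under 0.05 and open points for genes not called. The grey band spans the interquartile range of all 5937 genes tested. RPN8 and PRE2 lie far above the band and PRE6 and PRE4 far below it. On the total count scale 3 of the 33 genes were called higher and 19 lower, against 965 and 3605 of all 5937.

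Leaving out either thiolutin library left 8 of the 20 calls, namely RPT4, RPN8, SEM1, PUP2 and PRE2 as higher and PRE6, PUP1 and PRE4 as lower. Without an untreated library the spread came from the closer thiolutin pair, and the calls rose to 21 higher and 10 lower without untreated replicate 1 and to 23 and 8 without untreated replicate 2. RPN8, SEM1 and PRE2 were called higher and PRE6, PUP1 and PRE4 lower under each of the 9 other fits made, total counts included.

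Before the values of single subunits, the upstream sequences show what these genes share. PACE, searched as GGTGGCAAA on both strands from 250 bases before to 50 bases after the start codon, was found in 27 of the 33 genes (81.8%) and in 71 of 5889 such windows of all genes (1.21%). The 71 include the 27 members and some genes upstream of a member on the other strand, whose windows hold the same site. Each of the 27 genes held 1 match, between 84 and 183 bases before the start codon with a median of 120, and 19 matches read forward and 8 in reverse. Sites are shown for 3 genes called higher with thiolutin on the TMM scale (RPT4, PUP2, PRE2), 3 called lower (PRE6, PRE4, PRE10) and 3 not called (RPT6, PRE1, PRE9). The sites were chosen after the values were seen, to compare their letters. They are from the R64 genome sequence of RefSeq, 5′ to 3′ on the strand of the gene, with the PACE letters in capitals (TTTGCCACC is the same element in reverse).
RPT4, 112 bases before the start codon: aatagtggaaTTTGCCACCgaagggaaag
PUP2, 104 bases before the start codon: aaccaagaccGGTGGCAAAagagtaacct
PRE2, 155 bases before the start codon: acagcaaaagGGTGGCAAAacgaagaata
PRE6, 109 bases before the start codon: cgaagattctTTTGCCACCggaagggaaa
PRE4, 111 bases before the start codon: tggtttagaaTTTGCCACCttaaatacgt
PRE10, 128 bases before the start codon: cctctaaatcGGTGGCAAAaataagaaag
RPT6, 84 bases before the start codon: atgcgagcgaGGTGGCAAAagttgtaata
PRE1, 142 bases before the start codon: aaatctttacGGTGGCAAAaaataaagaa
PRE9, 159 bases before the start codon: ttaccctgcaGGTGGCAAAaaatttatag
The same letters stood upstream of genes that were higher, lower and not called, which follows from the way these sites were picked.

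Of the 27 genes with the PACE letters, 10 were higher with thiolutin on the TMM scale, 6 were lower and 11 were not called. The shares of all genes tested were 31.2% higher and 32.4% lower. The 27 genes had a median log2 fold change of 0.28 and a range from -0.97 to 1.38. The other 6 genes (RPN8, SEM1, RPN10, RPN13, PRE5 and PUP1) comprised 2 that were higher, 2 that were lower and 2 that were not called, with a median of 0.12 and a range from -0.81 to 1.58. Each of these 6 held a sequence that differs from PACE by 1 letter, which was looked for after the windows had been seen. RPN8, PRE5 and PUP1 held AGTGGCAAA, found in 43 of all 5889 windows (0.730%), and SEM1, RPN10 and RPN13 held GGTGGCGAA, found in 25 (0.425%). Allowing 1 letter, all 33 genes had a match, compared with 450 of all windows (7.64%). The near matches of these 6 genes are given with the nearly matching letters in capitals, and that of RPN10 reads in reverse.
RPN8, 172 bases before the start codon: gggatacctcAGTGGCAAAtcgttactca
PRE5, 147 bases before the start codon: cctattatagAGTGGCAAAattaaaaatt
PUP1, 158 bases before the start codon: aacccggccgAGTGGCAAAataccaaaaa
SEM1, 111 bases before the start codon: tagtgctatgGGTGGCGAAcgtggtgggc
RPN10, 101 bases before the start codon: caggcgggttTTCGCCACCggaatttaca
RPN13, 114 bases before the start codon: ttattcgcgaGGTGGCGAAagctttgcta
Within each of these trios the fold changes also differed in sign or size, from 1.58 for RPN8 to -0.81 for PUP1, and from 0.92 for SEM1 to -0.49 for RPN10.

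Longer stretches, from 250 to 101 bases before the start codon, are shown for PRE2 (chrXVI:732099-732248, plus strand) and RPN8 (chrXV:817032-817181, minus strand), the members with the largest increases, and for PRE4 (chrVI:249967-250116, minus strand), the beta ring gene with the largest decrease. Capitals mark PACE in PRE2 and PRE4, and in RPN8 the Yap1 site TTACTAA followed by the near match AGTGGCAAA.
PRE2: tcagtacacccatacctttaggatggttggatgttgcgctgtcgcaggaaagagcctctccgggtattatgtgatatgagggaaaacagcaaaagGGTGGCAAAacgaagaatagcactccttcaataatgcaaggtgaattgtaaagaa
RPN8: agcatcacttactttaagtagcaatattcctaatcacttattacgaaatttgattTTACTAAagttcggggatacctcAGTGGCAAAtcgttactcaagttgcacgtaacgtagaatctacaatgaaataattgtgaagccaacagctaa
PRE4: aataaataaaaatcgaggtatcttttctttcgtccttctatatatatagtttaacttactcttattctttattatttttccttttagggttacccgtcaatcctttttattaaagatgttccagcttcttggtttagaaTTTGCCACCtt
The Yap1 site TTACTAA was found in RPN8, RPN7 and PRE5 (3 of 33 genes, 9.09%) and in 7.56% of all windows. The Pdr1 and Pdr3 site, TCCGTGGA or TCCGCGGA, was found in RPN11 alone of the members and in 0.611% of all windows, and the heat shock element GAANNTTC in PRE6 and PUP2 (6.06%) and in 11.95% of all windows. A match says that the letters are there and not that the factor was bound.

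**Figure D2:**
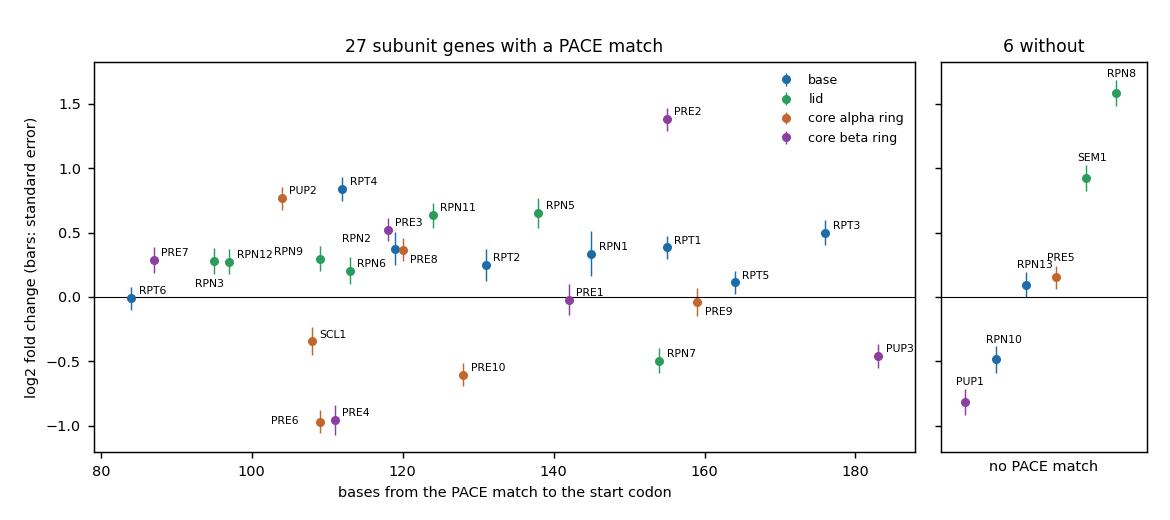
Log2 fold change with thiolutin (y axis, TMM scale, bars for the standard error) against the distance in bases from the PACE match to the start codon (x axis) for the 27 proteasome genes with a match, and in the right panel for the 6 without one. Matches lie between 84 and 183 bases from the start codon, and genes above and below 0 stand side by side, such as RPT4 at 112 and PRE4 at 111 bases. On the total count scale 15 of the 22 members above 0 lie below it.

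In the base, 3 genes were higher with thiolutin, 1 was lower and 6 were not called, whereas none was higher and 4 were lower with total counts as the scale. The increase was largest for RPT4 (YOR259C, chrXV:812395-813708), an ATPase of the ring, which had 192 and 208 CPM in untreated cells and 356 and 359 with thiolutin. Both treated libraries lay well above both untreated ones, with a log2 fold change of 0.84 (standard error 0.095, adjusted p = 0.0014 from edgeR), and 0.25 and not called with total counts. RPT3 (YDR394W) had 277 and 308 CPM against 417 and 410.0 with thiolutin. Its log2 fold change was 0.50 (standard error 0.10, adjusted p = 0.00919), without overlap of the groups, and -0.09 on the total count scale. RPT1 (YKL145W) had 342 and 363 CPM against 462 and 459, a log2 fold change of 0.38 (standard error 0.091, adjusted p = 0.0162) that was -0.20 with total counts. RPN10 (YHR200W), the ubiquitin receptor between base and lid, was the one base gene called lower, with 162 and 149 CPM in untreated cells and 118 and 105 with thiolutin. Its log2 fold change was -0.49 (standard error 0.11, adjusted p = 0.0124). The calls of RPT3, RPT1 and RPN10 were lost without either thiolutin library.

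The remaining ATPases did not pass the test on the TMM scale. RPT2 (YDL007W), the ATPase that opens the gate of the core, had 354 and 431 CPM in untreated cells and 467 and 464 with thiolutin (log2 fold change 0.25, standard error 0.12, adjusted p = 0.141), and the log2 fold change was -0.34 with total counts. RPT5 (YOR117W) had 182 and 191 against 206 and 197 CPM (0.11, standard error 0.090, adjusted p = 0.318), and -0.48 and called lower with total counts. RPT6 (YGL048C) had 282 and 278 against 272 and 285 CPM (-0.01, standard error 0.089, adjusted p = 0.928), with overlapping groups. With total counts the log2 fold change of RPT6 was -0.60 and called lower. The 6 ATPases, which form one ring with 1 copy of each, thus differed among themselves, and RPT4 and RPT6 mark the ends of their range.

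The scaffold proteins and the ubiquitin receptor RPN13 were not called either. RPN2 (YIL075C), a scaffold that holds RPN13, had 457 and 561 CPM in untreated cells and 654 and 665 with thiolutin (0.37, standard error 0.13, adjusted p = 0.0508), and -0.22 with total counts. It passed the test with the size factors of DESeq2, in DESeq2 and with the replicate number as a block. RPN1 (YHR027C), the scaffold that docks shuttle receptors, had 303 and 422 against 452 and 462 CPM (0.34, standard error 0.17, adjusted p = 0.147), and -0.25 with total counts. Its untreated libraries were the farthest apart of all members, by 0.48 on the log2 scale. RPN13 (YLR421C) had 95.8 and 107 against 107 and 109 CPM (0.09, standard error 0.096, adjusted p = 0.426), and -0.50 and called lower with total counts.

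In the lid, 5 genes were higher with thiolutin, 1 was lower and 3 were not called, whereas 2 were higher and 5 lower with total counts as the scale. RPN8 (YOR261C, chrXV:815915-816931), the structural partner of the deubiquitinase, had 147.5 and 159.6 CPM in untreated cells and 443 and 477 with thiolutin. This was a log2 fold change of 1.58 (standard error 0.10, adjusted p = 0.000321 from edgeR), the largest increase of all 33 genes. SEM1 (YDR363W-A, chrIV:1202128-1202397), a small acidic protein that also belongs to an mRNA export complex in yeast, had 89.7 and 83.2 CPM against 156 and 172. Both treated libraries lay far above both untreated ones, with a log2 fold change of 0.92 (standard error 0.10, adjusted p = 0.00129). RPN5 (YDL147W), a scaffold of the lid, had 331 and 392 CPM against 565 and 571, a log2 fold change of 0.65 (standard error 0.12, adjusted p = 0.00629) that was 0.06 and not called with total counts. RPN11 (YFR004W), the deubiquitinase that cuts the ubiquitin chain off the substrate, had 225 and 206 CPM against 336 and 333 with thiolutin. Its log2 fold change was 0.64 (standard error 0.096, adjusted p = 0.00359), and 0.05 and not called with total counts.

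RPN9 (YDR427W), another scaffold, was just past the threshold with 198 and 219 CPM against 256 and 255 (0.30, standard error 0.098, adjusted p = 0.046). With total counts the log2 fold change of RPN9 was -0.29 and called lower. RPN7 (YPR108W), also a lid scaffold, was the one lid gene called lower. It had 201 and 221 CPM in untreated cells and 152 and 147 with thiolutin, a log2 fold change of -0.49 (standard error 0.097, adjusted p = 0.0084). The scaffold genes not called were close to one another in fold change. RPN3 (YER021W) had 319 and 361 CPM against 416 and 409 (0.28, standard error 0.10, adjusted p = 0.0645). RPN12 (YFR052W) had 97.4 and 107 against 119.6 and 127 (0.27, standard error 0.096, adjusted p = 0.0556). RPN6 (YDL097C) had 281 and 320.3 against 347 and 344 (0.20, standard error 0.11, adjusted p = 0.150). For these 3 genes both treated libraries lay above both untreated ones, and on the total count scale the values were negative and called lower. Of the lid calls, RPN5, RPN11, RPN9 and RPN7 were lost without either thiolutin library.

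**Figure D3:**
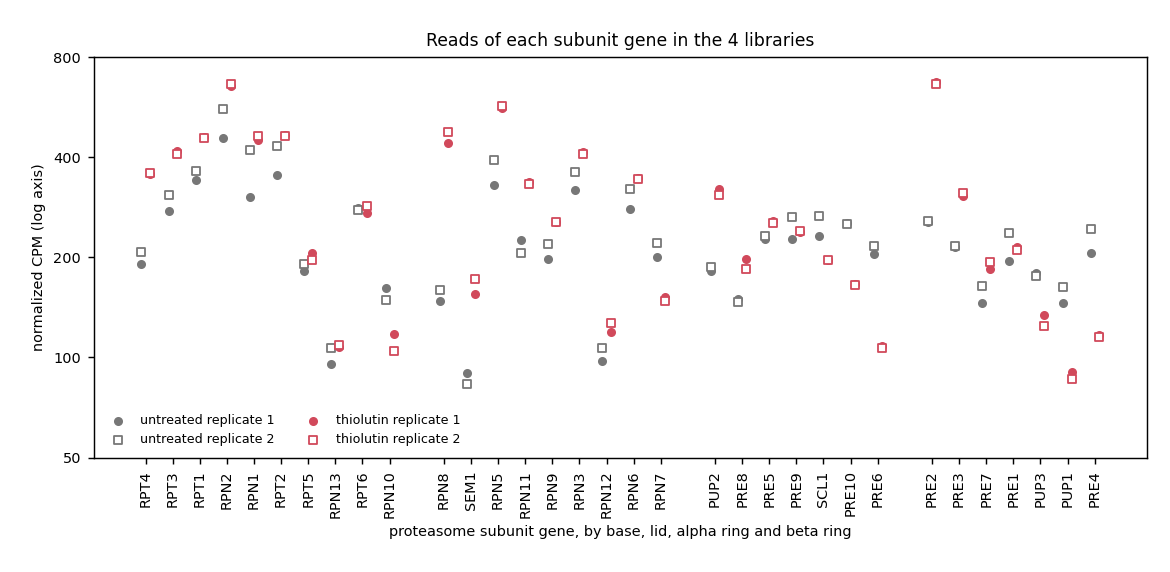
Normalized CPM (y axis, log axis, TMM scale) of each of the 33 proteasome genes in the 4 libraries, with grey symbols for untreated and red symbols for thiolutin, filled for replicate 1 and open for replicate 2. The red pair lies closer together than the grey pair for most genes. RPN8 (443 and 477 against 147.5 and 159.6) and PRE2 (673 and 665 against 255 and 258) show the widest gaps upward. On the total count scale 3 of the 33 genes were called higher and 19 lower, against 965 and 3605 of all 5937.

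The alpha ring, which forms the gate of the core, held 2 genes that were higher, 3 that were lower and 2 that were not called, whereas none was higher and 5 were lower with total counts. PUP2 (YGR253C, chrVII:998358-999140) had 182 and 187 CPM in untreated cells and 321 and 308 with thiolutin. The pairs were far apart, with a log2 fold change of 0.77 (standard error 0.09, adjusted p = 0.00156 from edgeR), and 0.18 and not called with total counts. PRE8 (YML092C) had 149.8 and 147 CPM against 198 and 185, a log2 fold change of 0.37 (standard error 0.09, adjusted p = 0.0184) that was -0.22 with total counts. PRE6 (YOL038W, chrXV:255337-256101) showed the largest decrease of all members, from 204 and 217 CPM to 108 and 107. Its log2 fold change was -0.97 (standard error 0.09, adjusted p = 0.000797). PRE6 was also the one member beside a gene that changed by a log2 of 3 or more, YOL036W, which starts 643 bp downstream on the same strand and had 3.27. The part of this neighbour in the counts of PRE6 was not tested.

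PRE10 (YOR362C) had 253 and 252 CPM in untreated cells and 167 and 166 with thiolutin, a log2 fold change of -0.60 (standard error 0.086, adjusted p = 0.00295). SCL1 (YGL011C) had 232 and 267 against 196 and 196 CPM, a log2 fold change of -0.35 (standard error 0.11, adjusted p = 0.0386) that was not called in DESeq2. PRE9 (YGR135W), the one core subunit that yeast can live without, had 228 and 265 CPM against 238 and 240.1 (-0.04, standard error 0.11, adjusted p = 0.759), and its groups overlapped. With total counts the log2 fold change of PRE9 was -0.63 and called lower. PRE5 (YMR314W) had 227.5 and 233 against 258 and 253 CPM (0.15, standard error 0.087, adjusted p = 0.184), and -0.44 and called lower with total counts. The calls of PRE8, PRE10 and SCL1 were lost without either thiolutin library.

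The beta ring held the widest contrasts, with 2 genes higher, 3 lower and 2 not called, whereas 1 was higher and 5 lower with total counts. The active sites sit in PRE3, PUP1 and PRE2, and these did not change alike. PRE2 (YPR103W, chrXVI:732349-733212), which carries the chymotrypsin-like site, had 255 and 258 CPM in untreated cells and 673 and 665 with thiolutin. This was a log2 fold change of 1.38 (standard error 0.089, adjusted p = 0.000322 from edgeR). PRE3 (YJL001W), which carries the caspase-like site, had 215 and 217 CPM against 307 and 313 with thiolutin. Its log2 fold change was 0.52 (standard error 0.087, adjusted p = 0.00498), and -0.07 with total counts. PUP1 (YOR157C, chrXV:630966-631751), which carries the trypsin-like site, had 146 and 163 CPM against 90.1 and 85.9. Its log2 fold change was -0.81 (standard error 0.10, adjusted p = 0.00188), so that of the 3 catalytic subunits PRE2 was higher and PUP1 lower on each scale tried.

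Among the beta subunits without an active site, PRE4 (YFR050C, chrVI:249066-249866) had 207 and 243 CPM in untreated cells and 116.5 and 115.1 with thiolutin. The log2 fold change was -0.96 (standard error 0.11, adjusted p = 0.00162), nearly that of PRE6. PUP3 (YER094C) had 180.1 and 176 CPM against 134 and 124, a log2 fold change of -0.46 (standard error 0.092, adjusted p = 0.0093). PRE7 (YBL041W) had 146 and 164 against 184 and 194 CPM (0.29, standard error 0.10, adjusted p = 0.0563), without overlap. With total counts the log2 fold change of PRE7 was -0.30 and called lower. PRE1 (YER012W) had 195 and 237 against 215 and 210.4 CPM (-0.02, standard error 0.12, adjusted p = 0.889), with overlapping groups. With total counts the log2 fold change of PRE1 was -0.61 and called lower. The calls of PRE3 and PUP3 were lost without either thiolutin library.

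Because a ratio of subunits within 1 library does not depend on the scale, pairs of subunits were also compared per length of coding sequence, the pairs being chosen after the values were seen. Per kb, PRE2 stood at 1.59 and 1.44 times PUP1 in the untreated libraries and at 6.79 and 7.05 times with thiolutin. PRE2 to PRE3 went from 0.893 and 0.894 to 1.65 and 1.59, which reverses their order. In the alpha ring the ratio of PUP2 to PRE6 was 0.873 and 0.844 in untreated cells and 2.91 and 2.82 with thiolutin.

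In the lid the ratio of RPN8 to RPN11, the partners of one dimer, went from 0.593 and 0.703 to 1.19 and 1.30. Among the ATPases, RPT4 to RPT5 went from 1.04 and 1.08 to 1.72 and 1.81, and RPT3 to RPT6 from 0.927 and 1.05 to 1.45 and 1.36. RPT1 to RPT2 differed less, with 0.904 and 0.788 in untreated cells and 0.925 in both thiolutin libraries. Except for the pair of RPT1 and RPT2, the changes of these ratios were larger than the differences between the libraries of a group.

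The subunits, which enter the complex in equal copies, had more uneven transcript levels with thiolutin. The SD of the log2 level per kb over the 33 genes was 0.45 and 0.42 in the untreated libraries and 0.67 and 0.69 with thiolutin. The highest level was 3.27 and 3.07 times the lowest in untreated cells and 6.79 and 7.05 times with thiolutin. Within the 14 core genes this ratio was 1.78 and 2.03 in untreated cells and, with PRE2 and PUP1 at the ends, the same 6.79 and 7.05 with thiolutin. In the base it changed little, from 2.65 and 2.32 to 2.44 and 2.72. A wider spread with thiolutin is not shown to be particular to these genes. On the TMM scale the interquartile range of the log2 fold changes was -0.04 to 0.50 for the 33 genes. For all 5937 genes tested it was -0.54 to 0.61, so the subunit genes diverged less than genes in general by this measure. Whether levels per kb also became more uneven across all genes was not tested.

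In untreated cells the mean level per kb was highest for PRE1 (362 normalized CPM per kb), followed by PRE3 (333), SCL1 (328) and PRE5 (326), whose libraries overlapped with those of PRE1, and lowest for RPN1 (122) and RPN12 (124). With thiolutin PRE2 stood first at 774, above SEM1 at 607, PRE3 at 478 and RPN8 at 452, and the libraries of these 4 genes did not overlap. RPN8 had been among the 4 lowest in untreated cells, at 151. The lowest levels with thiolutin were those of PUP1 (112), RPN7 (116) and RPN10 (138).

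**Figure D4:**
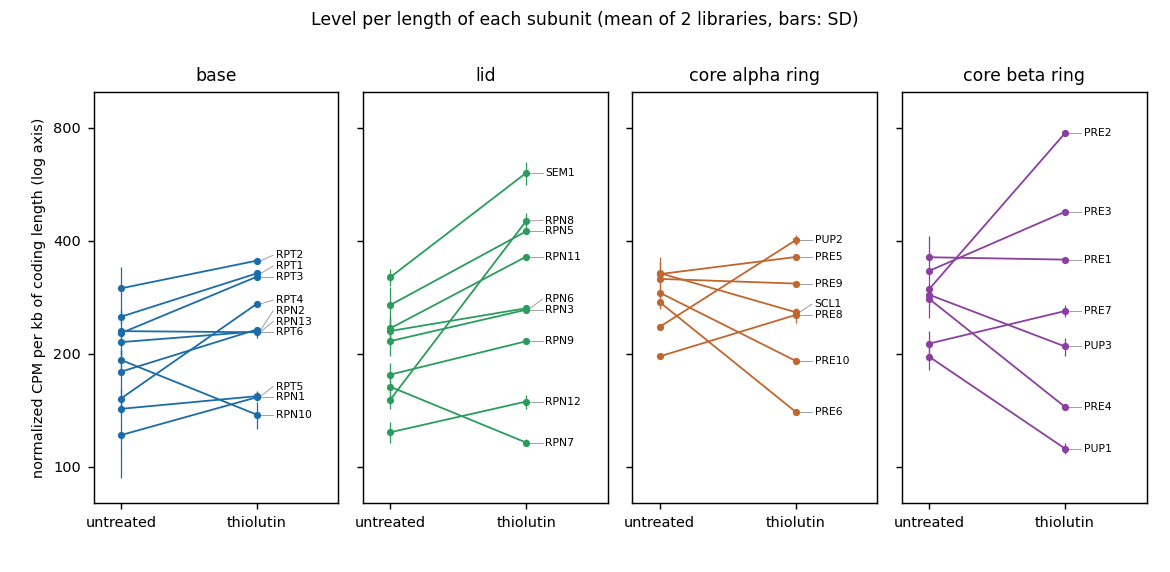
Mean level of each subunit gene in normalized CPM per kb of coding length (y axis, log axis) in untreated and thiolutin-treated cells, with lines joining the group means, bars for the SD of 2 libraries, and 1 panel each for base, lid, alpha ring and beta ring. The lines fan out in the beta ring, where PRE2 reaches 774 and PUP1 falls to 112, and stay nearly parallel for most of the base. The SD among all 33 genes is 0.45 and 0.42 for untreated and 0.67 and 0.69 for thiolutin libraries on the log2 scale, and it does not depend on the scale used.

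Taken as a share of all counts, the 33 genes held 0.899% and 0.999% without thiolutin and 0.773% and 0.778% with it. The 100 most counted genes held 28.5% and 27.5% of the counts in untreated cells and 48.4% and 47.8% with thiolutin. Without these 100 genes, none of which is a proteasome gene, the share was 1.26% and 1.38% in untreated cells and 1.499% and 1.491% with thiolutin. The direction of the share thus depended on whether the 100 genes were counted, and fewer transcripts per cell cannot be told apart from a smaller share of the RNA in these data.

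RPN4 (YDL020C), which codes for the factor that binds PACE, was far higher with thiolutin than any subunit gene. It had 188 and 171 CPM in untreated cells and 2077 and 2135 with thiolutin, a log2 fold change of 3.55 (adjusted p = 6.97e-05 from edgeR) that was 2.97 with total counts. Of 8 regulators listed, namely RPN4, its upstream activators YAP1, PDR1, PDR3 and HSF1 and the genes RAD6, UBR2 and MUB1 for the degradation of Rpn4, 4 were higher and none was lower, whereas 4 were higher and 3 lower (PDR1, HSF1 and UBR2) with total counts. YAP1, the activator of the oxidative stress response, had 137 and 156 CPM against 918 and 917 (2.65, standard error 0.11), and a PACE match 46 bases before its start codon. PDR3 and RAD6 were the others called, while UBR2, MUB1, PDR1 and HSF1 were not. None of RPN4, UBP6 or the assembly chaperone gene UMP1 held the PACE letters in its window. Of the 44 genes outside the proteasome subunits that held them and were tested, 12 were higher, 16 lower and 16 not called on the TMM scale. Their median was -0.02, and of all genes tested 31.2% were higher and 32.4% lower. Some of the 44 lie upstream of a member on the other strand, such as GCD1 beside RPT4 (275 bp) and ALG13 beside RPT6 (265 bp). In such pairs 1 site falls in both windows, and these genes were not counted apart.

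The proteins that bind the proteasome from outside were mixed as well. Of 8 activators and bound factors, 4 were higher and 1 was lower, whereas 2 were higher and 2 lower with total counts, where UBP6 and CIC1 were no longer called and FUB1 was called lower. STS1, which brings proteasomes to the nucleus, had 71.7 and 59.9 CPM against 229 and 220.1 with thiolutin (1.77, standard error 0.12). SPG5, a proteasome regulator of stationary cells, had 57.8 and 47.5 against 153 and 151 (1.53, standard error 0.12). HUL5, a ubiquitin ligase of the proteasome that was named after its values were seen, was the lower one with 79.1 and 97.6 against 41.7 and 41.0 CPM (-1.09, standard error 0.13).

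The 3 shuttle receptors, which carry ubiquitinated proteins to the proteasome, were all called, and they differed in direction. DDI1 had 89.4 and 87.9 CPM in untreated cells and 186 and 187 with thiolutin (1.07, standard error 0.085). RAD23 had 177 and 204 against 109 and 104 CPM (-0.83, standard error 0.11), and DSK2 was lower as well (-0.51, standard error 0.089). On the total count scale these directions were the same, with 1 called higher and 2 lower.

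Of the 9 assembly chaperones, which help to build the core and the base and are not part of the finished particle, none was called by edgeR. At an unadjusted p under 0.05 there was 1, DESeq2 called none, and the size factors of DESeq2 gave 1 that was higher. With total counts all 9 were called lower, as were 3605 of all 5937 genes. The median on that scale was -0.74 for the chaperones and -0.63 for all genes. The log2 fold changes ran from -0.42 for POC4, with 16.3 and 12.8 CPM in untreated cells and 11.3 and 10.5 with thiolutin, to 0.28 for RPN14, with 62.1 and 55.8 against 72.5 and 70.2 CPM.

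**Figure D5:**
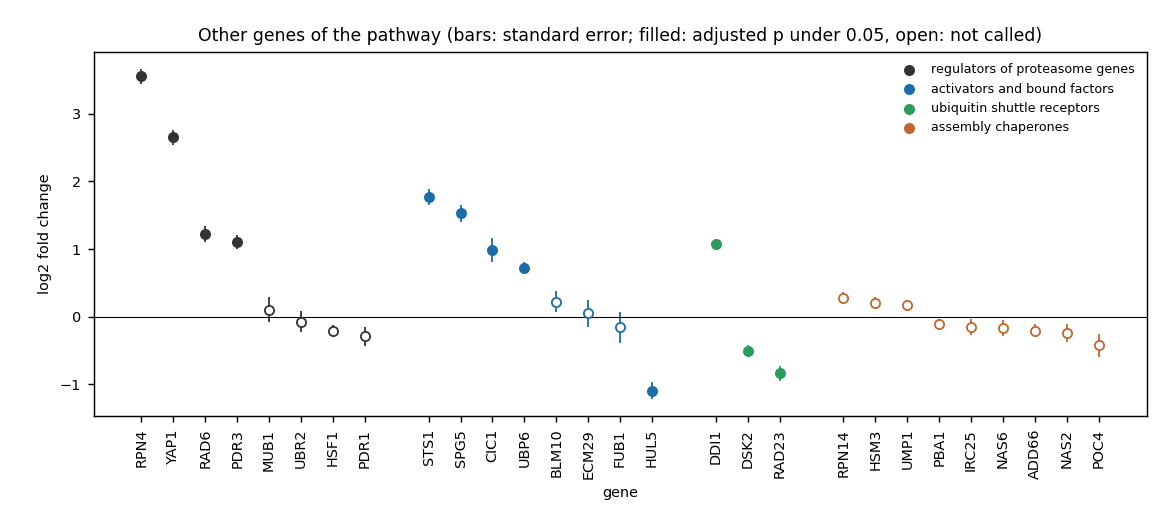
Log2 fold change with thiolutin against untreated cells (y axis, TMM scale, bars for the standard error) of the regulators, bound factors, shuttle receptors and assembly chaperones of the proteasome, filled for an adjusted p under 0.05 and open for genes not called. RPN4 stands highest at 3.55, DDI1 and RAD23 lie on opposite sides of 0, and the 9 assembly chaperones stay between -0.42 and 0.28. With total counts as the scale all 9 assembly chaperones were called lower, as were 3605 of all 5937 genes.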

How the data were processed

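RNA-seq was analysed from 2 untreated and 2 thiolutin libraries of BY4741. The deposited count values are raw reads per gene, made by the authors on genome build R64. Aligner, counting program and use of strand: not given in the sources read here. The table of the authors also holds normalized counts and the fold changes, standard errors and p-values of their DESeq2 comparison, and a second sheet lists the genes they called, and none of these was used. Of 6212 rows, 3 name no gene and hold no counts and were left out.

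Low counts were removed with filterByExpr, libraries were scaled by TMM, and thiolutin was compared with untreated cells by the quasi-likelihood test of edgeR 4.0.16 in R 4.3.3, with Benjamini-Hochberg adjustment over 5937 genes and a threshold of 0.05. A rank or permutation test on 2 against 2 libraries cannot pass that threshold, so the test used rests on a spread shared across genes (biological coefficient of variation 12.2%). Standard errors were derived from the F statistic. The method was also run on simulated counts with few changed genes, in equal numbers up and down, which is no test of the choice of scale. Coding lengths and upstream windows came from the RefSeq R64 annotation and genome. Python 3.11.15, pandas 2.3.3, numpy 2.4.6 and matplotlib 3.10.9 were used.

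All members are given in the text, with coordinates for those of the largest change, and of each other list up to 2 genes with the largest change in size. The members and lists were chosen with earlier results of these data known. The alternatives tried were scaling by DESeq2 size factors or by total counts, the Wald test of DESeq2 1.42.0, no filter, a block for the replicate number, leaving out each library, a threshold of 0.01, a fold change threshold of 1 on the log2 scale, and other motif windows and letters. A window from 500 bases before the start codon and PACE with 1 letter changed were added after the data were seen.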

Additional observations from a re-analysis of the deposited data

How the results depend on the processing

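With total counts as the scale, 3 members were higher and 19 lower, with 0 base, 2 lid and 1 core gene higher, the median of the members was -0.32, and 965 of all genes were higher and 3605 lower. On that scale the log2 fold change turned negative for 15 members, RPT1 (-0.20), RPT2 (-0.34), RPN1 (-0.25), RPN2 (-0.22), RPT3 (-0.0898), RPT5 (-0.48), RPN3 (-0.31), RPN6 (-0.39), RPN9 (-0.29), RPN12 (-0.32), RPN13 (-0.50), PRE8 (-0.22), PRE5 (-0.44), PRE3 (-0.0657) and PRE7 (-0.30). Of these 15, RPT5, RPN3, RPN6, RPN9, RPN12, RPN13, PRE5 and PRE7 were called lower. The total count scale counts the most abundant genes, whose share of the reads was larger with thiolutin. Leaving out 1 library gave 5 to 23 members higher and 3 to 10 lower, 1 to 8 base, 2 to 8 lid and 2 to 7 core genes higher, and 1163 to 2437 of all genes higher and 893 to 2572 lower. The median of the members ranged from 0.14 without untreated replicate 1 to 0.35 without untreated replicate 2, and the log2 fold change of PRE1 from -0.15 to 0.13 in the same fits. At a log2 fold change of 1 or more in size on the TMM scale, 2 members were higher and 0 lower, with 0 base, 1 lid and 1 core gene higher. Of all genes, 931 were higher and 613 lower at that threshold. With total counts as the scale, 0 members were higher and 7 lower by it. At an adjusted p under 0.01, 1280 of all genes were lower. With the replicate number as a block, 12 members were higher and 7 lower, so the call of RPN9 and of SCL1 was lost and that of RPN2 gained. The differences between replicates 1 and 2 were hardly correlated between the groups (correlation 0.02). Each group gives only a single such difference, so this cannot tell whether the libraries were paired by experiment. Without PRE6, whose neighbour had a log2 fold change of at least 3, the median rested on 32 members. With reads from 1249 to 20684 per member and library, counting error was small beside the spread between the untreated libraries.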

Other observations

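RPT4 and RPN8, the base and lid genes with the largest increases, lie on either side of 1 gene, GCD1 on chromosome XV, which had a log2 fold change of -0.81 (adjusted p = 0.0106 from edgeR). PUP2 has ENO1 as its upstream neighbour, 1786 bp away on the other strand and with a log2 fold change of 2.62, and RPN12 has HXK1 as its downstream neighbour, 262 bp away and with -2.49. The part of these neighbours in the counts of the members was not tested. With a window from 500 bases before the start codon, PACE was found in the same number of members, 27, and in 102 of 5889 windows of all genes (1.73%).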
